A study of Cucumis sativus with 8 samples.

Results

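*BP* (Csa2G352430), *KNAT2* (Csa2G034560) and *KNAT6* (Csa5G600390) are 3 cucumber genes of the KNOX homeobox family. They were chosen by name as the rows of these identifiers, 3 of the 17783 genes in the table, and all 3 passed the filter on low values. RNA was sequenced from leaf midveins of the youngest expanded leaves and from young fruits collected 4 d before anthesis, in wild type (WT) and in R5, both in the cucumber inbred line R1461. R5 is a line that carries an RNA interference construct against *CsIVP*, a gene for a basic helix-loop-helix transcription factor which the sample labels call CsIND. Each of the 4 groups, WT vein, R5 vein, WT fruit and R5 fruit, has 2 libraries called biological replicates. R5 is a single transgenic line, so an effect of the construct and any other difference of that line cannot be told apart. The names *BP*, *KNAT2* and *KNAT6* come from tables of the study that give each cucumber gene its closest *Arabidopsis* match, and the study listed all 3 among genes changed in vein of these libraries.

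KNOX proteins are homeodomain transcription factors that act in pairs with the related BELL proteins. Class I members, to which *STM*, *BP*, *KNAT2* and *KNAT6* belong in *Arabidopsis*, are best known from the shoot meristem, where they hold cells in an undifferentiated state, raise cytokinin and keep gibberellin low, and they are largely shut off in developing simple leaves. *Arabidopsis* *BP* (*BREVIPEDICELLUS*) shapes internodes and flower stalks and restrains lignin deposition, while *KNAT2* and *KNAT6* are close relatives known from organ boundaries and the pistil, and *BP* holds them back in the flower stalk.

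The study designed DNA-binding oligonucleotides for *BP*, and whether it did so for *KNAT2* or *KNAT6* was not looked up. Those for *BP* are shown because they hold a promoter site that the study set, among other E-boxes of this promoter, against CsIVP. The capitals mark the E-box, the 6 bases CANNTG that basic helix-loop-helix proteins bind, here CAACTG, which reads CAGTTG on the other strand. All are written 5′ to 3′ as in the study's primer list.
CsBP-F, gel-shift probe: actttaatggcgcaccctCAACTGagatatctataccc
CsBP-333-F, yeast one-hybrid oligonucleotide: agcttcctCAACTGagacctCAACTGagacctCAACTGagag
CsBP-333ChipF, forward primer for chromatin immunoprecipitation: cgtggttgtctcctagatg
CsBP-333ChipR, reverse primer for chromatin immunoprecipitation: gaaggtgtgttttgggtataga
The probe has 38 bases, with 18 before the E-box and 14 after it. The one-hybrid oligonucleotide repeats the E-box 3 times in a unit of 12 bases that also stands in the probe. The last 9 bases of the probe are the start of the reverse complement of the reverse primer, so the 3′ end of this primer lies 5 bases beyond the E-box and its 5′ end 27 bases beyond it. Genome coordinates, and the share of other promoters that hold this motif, were not analysed here.

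The read totals on genes ran from 18088985 to 22979345 per library. How reads that match more than 1 of these related genes were counted is not given in the sources used here. Levels are given in RPM, in which the reads on genes of each library are scaled to 1 common total, and 3 reads correspond to 0.131 to 0.166 RPM. The targeted gene, *CsIVP* (Csa6G483450), gave no read in vein, and in fruit it stood at 50.0 and 38.3 RPM in WT and at 42.3 and 52.1 RPM in R5. These fruit values overlap, so the genotype of a library rests on its label. The spread between the 2 libraries was widest in R5 vein, where 2650 genes (14.9%) were over 2-fold apart, against 80 genes (0.450%) in WT vein. The green leaf, xylem, phloem and floral lists below were drawn by name from the study's tables. These tables list genes that it selected as changed in vein, so the counts and directions in vein are no independent evidence. A list of 20 green leaf genes (light-harvesting and photosystem proteins), of which none was at 0, summed to 32009 and 29264 RPM in WT vein, 2709 and 16474 RPM in R5 vein, 4850 to 4963 RPM in WT fruit and 3384 to 4000 RPM in R5 fruit. All 20 were lower in R5 vein by the fitted difference, and 8 were called lower, where 5.14% of all tested genes were. The call count was 11 with TMM scaling, 8 by edgeR and 18 by DESeq2. By limma it rose without replicate 2 of R5 vein and fell without replicate 1 of R5 vein or either WT vein library. Leaving out a WT vein library also lowered the number of genes called over all tested genes. A list of 4 xylem genes summed to 83.7 and 89.4 RPM in WT vein, 60.4 and 42.1 RPM in R5 vein and 15.6 to 16.8 RPM in fruit, and 3 of these 4 also stand in the lignin list described below. By limma 1 of the 4 was called higher in R5 vein and 0 lower, where 14.0% and 5.14% of all tested genes were. TMM scaling, edgeR and DESeq2 each called 1 higher and 3 lower. A list of 7 phloem genes summed to between 123 and 175 RPM in all libraries. By limma 6 members were called higher in R5 vein and 1 lower, beside 14.0% and 5.14% of all tested genes. Fewer members were called higher when replicate 1 or replicate 2 of WT vein was left out. A pair of floral genes, *LEAFY* and AGAMOUS-like 8, summed to 21.4 and 23.9 RPM in WT vein, 46.0 and 78.6 RPM in R5 vein and 59.7 to 79.1 RPM in fruit. The pair did not move together, as 1 was called higher and 1 lower in R5 vein by limma, edgeR and DESeq2. In replicate 1 of R5 vein 1 of them had no read. The part of these differences in the vein results below was not tested. In bulk tissue, fewer cells of a type and less RNA per cell cannot be told apart.

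*BP* was a low-level gene with its highest levels in WT vein. It stood at 2.82 and 1.74 RPM in the WT vein libraries (51 and 36 reads), 0.488 and 0.316 RPM in R5 vein (9 and 6 reads), 0.410 and 1.22 RPM in WT fruit (9 and 28 reads) and 1.41 and 0.644 RPM in R5 fruit (26 and 14 reads). Both WT vein libraries lay above the other 6. The mean levels followed the order WT vein (2.28 ± 0.766 RPM, SD, n = 2), R5 fruit (1.03 ± 0.545), WT fruit (0.814 ± 0.572) and R5 vein (0.402 ± 0.122). The fruit groups overlapped each other, and WT fruit overlapped R5 vein, so these neighbours do not differ beyond their spread.

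*KNAT2* was far higher in fruit than in vein. In WT fruit it was at 47.8 and 61.4 RPM (1050 and 1412 reads) and in R5 fruit at 44.4 and 40.4 RPM (816 and 878 reads). In vein it was at 0.442 and 0.434 RPM in WT (8 and 9 reads) and 0.0542 and 0.158 RPM in R5, which is 1 read and 3 reads. The order of the means was WT fruit (54.6 ± 9.65 RPM, SD, n = 2), R5 fruit (42.4 ± 2.83), WT vein (0.438 ± 0.00593) and R5 vein (0.106 ± 0.0734), with no overlap between neighbouring groups. R5 and WT libraries also did not overlap for 67.2% of all tested genes in vein and 46.6% in fruit. The R5 vein level of *KNAT2* is at the limit of what these depths resolve.

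*KNAT6* was also higher in fruit, with an intermediate level in R5 vein. It stood at 1.77 and 1.88 RPM in WT vein (32 and 39 reads), 9.11 and 5.64 RPM in R5 vein (168 and 107 reads), 21.4 and 19.1 RPM in WT fruit (470 and 438 reads) and 23.9 and 22.7 RPM in R5 fruit (439 and 494 reads). The order of the means was R5 fruit (23.3 ± 0.819 RPM, SD, n = 2), WT fruit (20.2 ± 1.65), R5 vein (7.37 ± 2.46) and WT vein (1.82 ± 0.0785). No neighbouring groups overlapped, though the fruit groups lay close together. Of all tested genes, 67.2% in vein and 46.6% in fruit had R5 and WT libraries that did not overlap. The 2 R5 vein libraries differed more from each other than those of any other group.

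**Figure D1:**
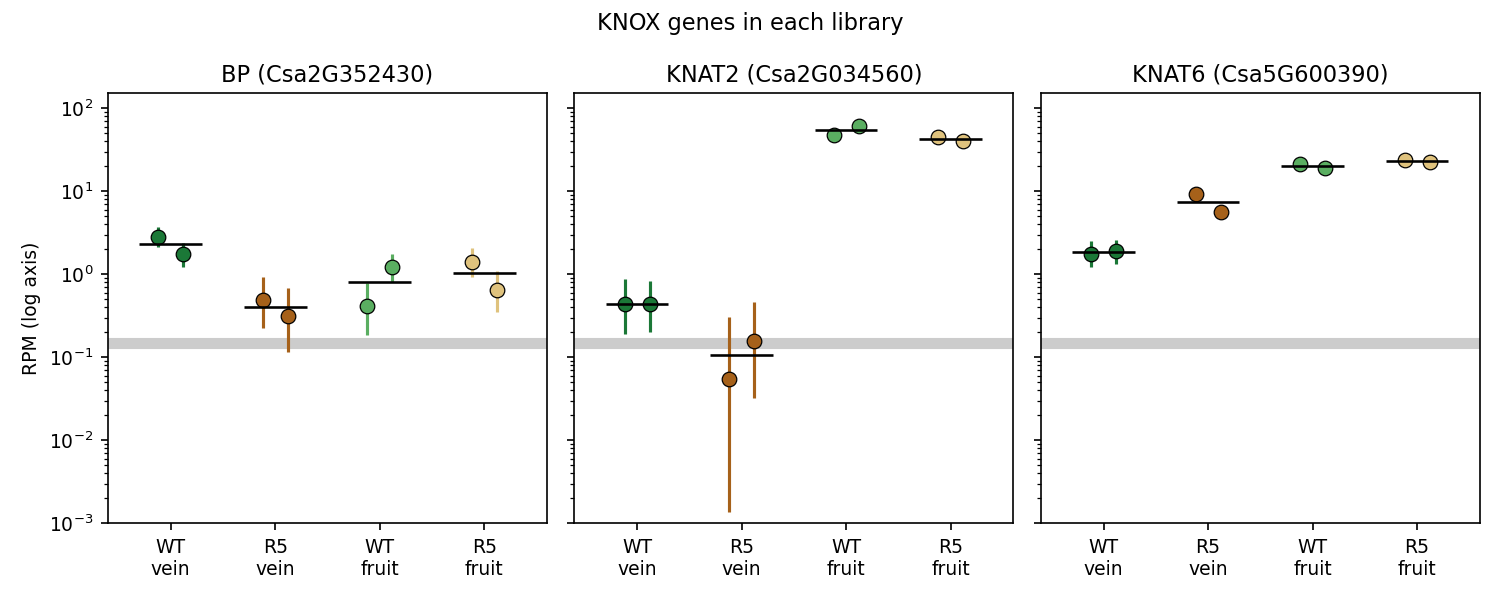
RPM of *BP*, *KNAT2* and *KNAT6* in each library (log axis), 2 points a group, with exact 95% Poisson intervals of the reads as vertical lines (counting error only), the group mean as a black line and the level of 3 reads as a grey band. *BP* is highest in WT vein (2.82 and 1.74 RPM), *KNAT2* is near the band in vein and at 40.4 to 61.4 RPM in fruit, and *KNAT6* in R5 vein (9.11 and 5.64 RPM) lies between WT vein and fruit. Reads are not scaled by gene length, so heights are not comparable between panels.

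The comparison of R5 with WT in vein asks which genes moved in the whole midvein of the RNAi line. *BP* fell and *KNAT6* rose, while *KNAT2* was low in both genotypes. Differences are given on the scale of log2(RPM + 0.5) from limma, adjusted by Benjamini-Hochberg over 17778 genes, and a gene is called where the adjusted p is under 0.05 and the difference is 2-fold or more. For *BP* the difference was -1.60 (SE 0.42, adjusted p = 0.0251), a call. On the reads themselves the R5 level was 0.179 times that of WT (95% interval 0.0960 to 0.312, counting error only). For *KNAT6* it was 1.72 (SE 0.23, adjusted p = 0.00258), a call, and by reads 4.02 times the WT level (3.09 to 5.29). For *KNAT2* it was -0.64 (SE 0.20, adjusted p = 0.0472), under 2-fold on this scale and not called, and by reads 0.244 times the WT level (0.0598 to 0.749), from 4 reads in R5 against 17 in WT. Among all tested genes 5.14% were called lower and 14.0% higher in R5 vein, 19.2% in all. Each of the 3 genes had R5 libraries that did not overlap the WT libraries, as did 67.2% of all tested genes.

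The *BP* call was lost without either WT vein library. Such a fit leaves 1 library in that group and calls fewer genes over all tested genes as well. Without replicate 1 of WT vein the *BP* difference was -1.32, and without replicate 2 it was -1.89. Without replicate 1 of R5 vein, the library with the low green leaf sum, it was -1.74 (adjusted p = 0.0231), and without replicate 2 of R5 vein -1.46 (adjusted p = 0.0350). *KNAT6* was called without any one library, at 1.40 (adjusted p = 0.000656) without replicate 1 of R5 vein and 2.05 (adjusted p = 5.66e-05) without replicate 2. For *KNAT2* the call depended on how near-zero values were treated. It was called at -1.43 with a pseudocount of 0.1 (adjusted p = 0.0114), and on the recovered reads at -2.23 by the quasi-likelihood test of edgeR (adjusted p = 0.0175) and -2.32 by DESeq2 (adjusted p = 0.0181), which called 8.21% and 9.88% of all genes lower. On the same reads, *BP* was at -2.75 by edgeR (adjusted p = 0.0247) and -2.80 by DESeq2 (adjusted p = 0.00274), both calls. The median gene moved by 0.20 in this comparison on the RPM scale and by -0.04 after TMM scaling, which put *BP* at -1.83, *KNAT2* at -0.76 and *KNAT6* at 1.52.

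In young fruit 0 of the 3 genes were called between R5 and WT by limma, 0 had an unadjusted p under 0.05, and 0 were called by edgeR's quasi-likelihood test or DESeq2. Of all tested genes 0.472% were called there by limma, 0.366% by edgeR and 2.04% by DESeq2. *BP* differed by 0.24 (SE 0.42, adjusted p = 1.00), less than the spread within either fruit group. *KNAT2* differed by -0.35 (SE 0.20, adjusted p = 0.939) and *KNAT6* by 0.20 (SE 0.23, adjusted p = 1.00). Both R5 fruit libraries were below both WT libraries for *KNAT2* and above them for *KNAT6*, and 46.6% of all tested genes did not overlap in this comparison. By pooled reads the R5 fruit level of *KNAT2* was 0.771 times that of WT (0.724 to 0.820) and that of *KNAT6* 1.15 times (1.05 to 1.26). These intervals cover counting error alone and leave out the difference between replicate fruits. The sign for *BP* was not stable, since it became -0.22 without replicate 1 of WT fruit and -0.13 without replicate 1 of R5 fruit (adjusted p = 1.00 for each).

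Whether the R5 effect differed between the tissues was tested by the difference of the vein and fruit effects. For *KNAT6* this was 1.52 (SE 0.33, adjusted p = 0.0370), past the threshold, as for 11.4% of all tested genes. For *BP* it was -1.84 (SE 0.59, adjusted p = 0.0892) and for *KNAT2* -0.28 (SE 0.28, adjusted p = 0.537), neither of which passed. The *BP* value was the larger in size, with the wider SE. The *KNAT6* result passed without either R5 vein library (1.20, adjusted p = 0.00825, without replicate 1, and 1.85, adjusted p = 0.000715, without replicate 2). It did not pass when WT vein replicate 1 or 2 was left out (1.49 and 1.56, with adjusted p of 0.149 and 0.121). The same held for WT fruit replicate 1 or 2 (1.44 and 1.61, with adjusted p of 0.153 and 0.114) and for R5 fruit replicate 1 or 2 (1.56 and 1.49, with adjusted p of 0.124 and 0.105). Without any one WT library 0 genes of the whole table passed this test in limma, though 3641 to 4079 had an unadjusted p under 0.05. Over all 8 libraries edgeR's quasi-likelihood test on the recovered reads gave *KNAT6* 1.53 (adjusted p = 0.0260) and DESeq2 1.54 (adjusted p = 0.00171), where 5.52% and 10.1% of all genes passed as higher. For *BP* edgeR gave -3.07 (adjusted p = 0.0886), not passing, and DESeq2 -3.11 (adjusted p = 0.0373), where 9.03% passed as lower.

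The tissue comparison, vein against fruit within a genotype, separated *KNAT2* and *KNAT6* from *BP*. In WT, the difference on the log2(RPM + 0.5) scale was -5.87 for *KNAT2* (SE 0.20, adjusted p = 3.89e-05) and -3.15 for *KNAT6* (SE 0.23, adjusted p = 0.000271), both calls. By reads, WT fruit held 125 times the vein level of *KNAT2* (95% interval 78.0 to 215) and 11.05 times that of *KNAT6* (8.67 to 14.3). Of all tested genes 22.7% were called lower and 7.45% higher in WT vein. Only 30 of the 17778 tested genes had a lower value than *KNAT2* here, and 321 had a lower value than *KNAT6*. *BP* went the other way, at 1.12 (SE 0.42, adjusted p = 0.0554), not called, with both vein libraries above both fruit libraries, as for 21.6% of all tested genes. After TMM scaling, under which the median gene moved from -0.51 to -0.09, *BP* was called at 1.45 (adjusted p = 0.0333). It was also called on recovered reads by edgeR (1.91, adjusted p = 0.0481) and DESeq2 (1.99, adjusted p = 0.0238), which called 11.7% and 14.1% of genes higher, and at 1.58 (adjusted p = 0.0406) without replicate 2 of WT fruit, the fruit library with more *BP* reads.

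In R5 the same comparison gave *KNAT2* -6.15 (SE 0.20, adjusted p = 2.29e-05) and *KNAT6* -1.63 (SE 0.23, adjusted p = 0.00240), both calls, and *BP* -0.72 (SE 0.42, adjusted p = 0.206), not called. The background in R5 was 14.1% called lower and 8.36% higher in vein. By reads R5 fruit held 3.16 times the vein level of *KNAT6* (2.76 to 3.63), compared with 11.05 times in WT. For *KNAT2* the ratio was 395 (154 to 1451), with only 4 vein reads behind it. For *BP* R5 fruit held 2.49 times the vein level (1.34 to 4.84), where in WT fruit held 0.367 times the vein level (0.243 to 0.546). The change of the tissue gap between genotypes is the same quantity as the difference of effects above. It passed its test for *KNAT6* with limma, edgeR and DESeq2 and for *BP* with DESeq2 alone. On simulated reads with 200 genes changed 4-fold in R5 vein, 98 of 245 DESeq2 passes of this test were false. For limma 9 of 91 were false and for edgeR 9 of 96.

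**Figure D2:**
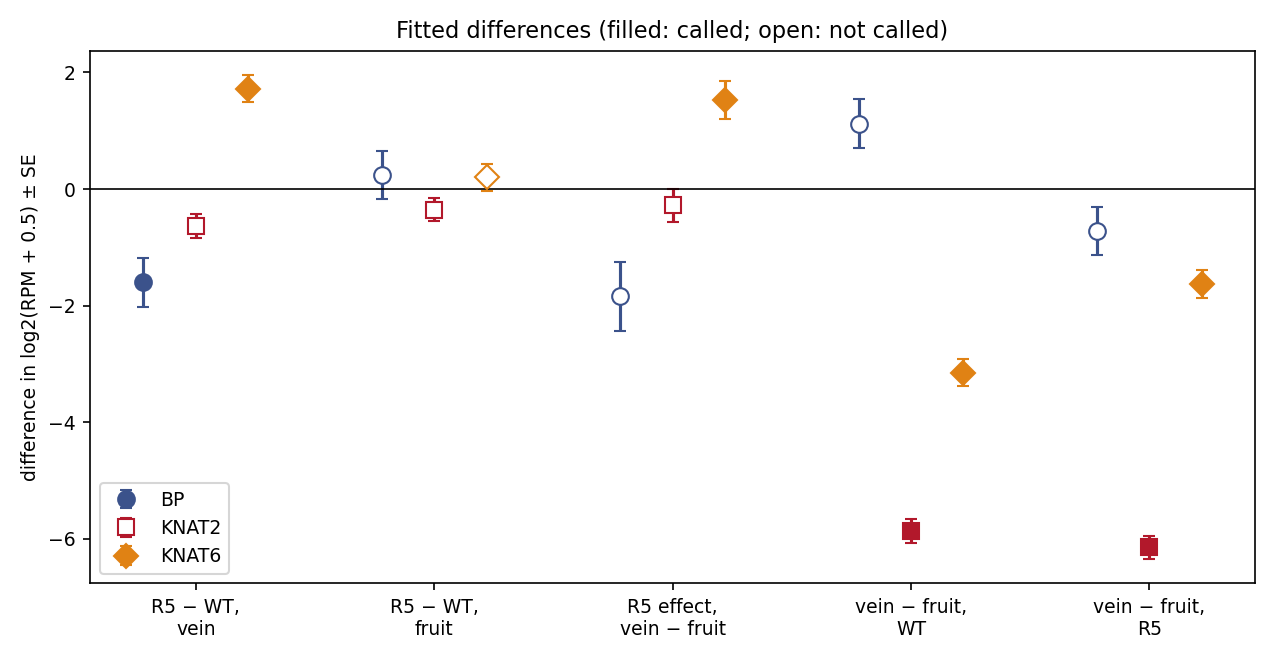
Fitted differences in log2(RPM + 0.5) with standard errors for *BP* (circles), *KNAT2* (squares) and *KNAT6* (diamonds), with 2 libraries a group and filled symbols for calls. In vein *BP* is at -1.60 and *KNAT6* at 1.72, in fruit all 3 lie within -0.35 to 0.24, and the tissue differences of *KNAT2* are the farthest from 0, at -5.87 and -6.15.

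**Figure D3:**
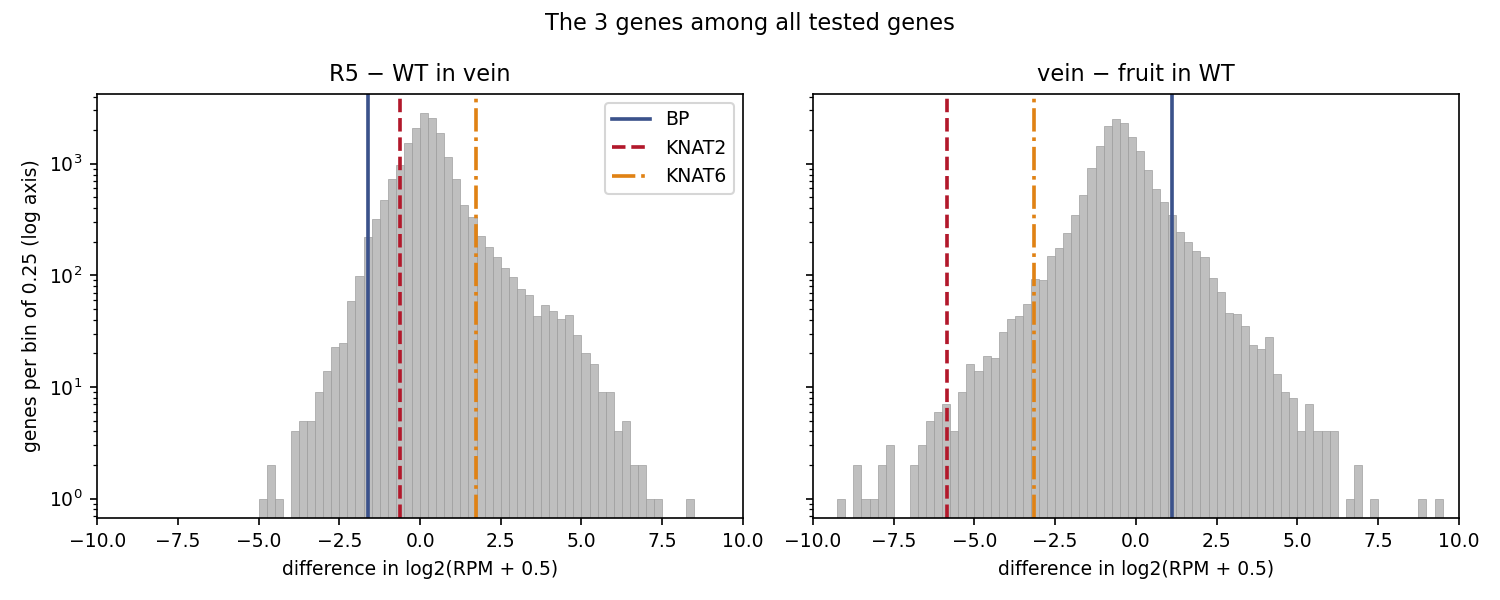
Histograms of the fitted difference in log2(RPM + 0.5) over the 17778 tested genes (gene number on a log axis, bins of 0.25), for R5 minus WT in vein and for vein minus fruit in WT, with vertical lines at the 3 genes. *BP* and *KNAT6* lie on either side of the bulk in vein, with 357 genes below *BP* and 1281 above *KNAT6*, and *KNAT2* has 30 genes below it in the tissue comparison.

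The other KNOX and BELL genes named in the study's tables were 4, and all were tested. In vein 2 were called higher and 1 lower in R5, and 1 was not called, though DESeq2 called this one lower too. These tables list genes that the study selected as changed in vein, so the count is no independent evidence of a direction. The gene annotated as *KNAT3*, a class II KNOX gene, rose from 30.2 and 30.4 RPM in WT vein to 87.2 and 63.9 RPM in R5 vein (1.29, SE 0.16, adjusted p = 0.00194). In fruit it lay between 45.6 and 48.9 RPM in all 4 libraries. The gene annotated as BEL1-like homeodomain 1, a possible BELL partner by family, rose from 58.9 and 65.6 RPM to 231 and 157 RPM (1.61, SE 0.23, adjusted p = 0.00318) and was at 98.7 to 135 RPM in fruit.

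*STM* (Csa7G041370), the class I gene that maintains the *Arabidopsis* shoot meristem, moved in the direction of *BP*. It was at 10.5 and 10.1 RPM in WT vein and at 3.91 and 4.85 RPM in R5 vein, a difference of -1.16 (SE 0.27, adjusted p = 0.0178). The call was lost without either WT vein library (-1.13 without replicate 1, and -1.18 with an adjusted p of 0.0828 without replicate 2). In fruit its libraries overlapped, at 18.8 and 28.9 RPM in WT and 22.8 and 15.3 RPM in R5. The fourth, Csa4G297540, is annotated only as a POX family protein, the family of the BELL genes. It had few reads in vein, at 1.05 and 0.578 RPM in WT and 0.108 and 0.316 RPM in R5, and was not called (-0.88, SE 0.36, adjusted p = 0.0980). Of class I genes in vein, then, *BP* and *STM* were called lower, *KNAT6* was called higher and *KNAT2* was not called.

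The test of a vein effect unlike the fruit effect passed for *KNAT3* (1.23, SE 0.22, adjusted p = 0.0253) and BEL1-like homeodomain 1 (1.57, SE 0.33, adjusted p = 0.0337). As for *KNAT6*, each result was lost without any one library of WT vein, WT fruit or R5 fruit. The adjusted p for *KNAT3* then ran from 0.0792 to 0.124 and for BEL1-like homeodomain 1 from 0.0673 to 0.149. It did not pass for *STM* (-0.84, SE 0.39, adjusted p = 0.191).

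**Figure D4:**
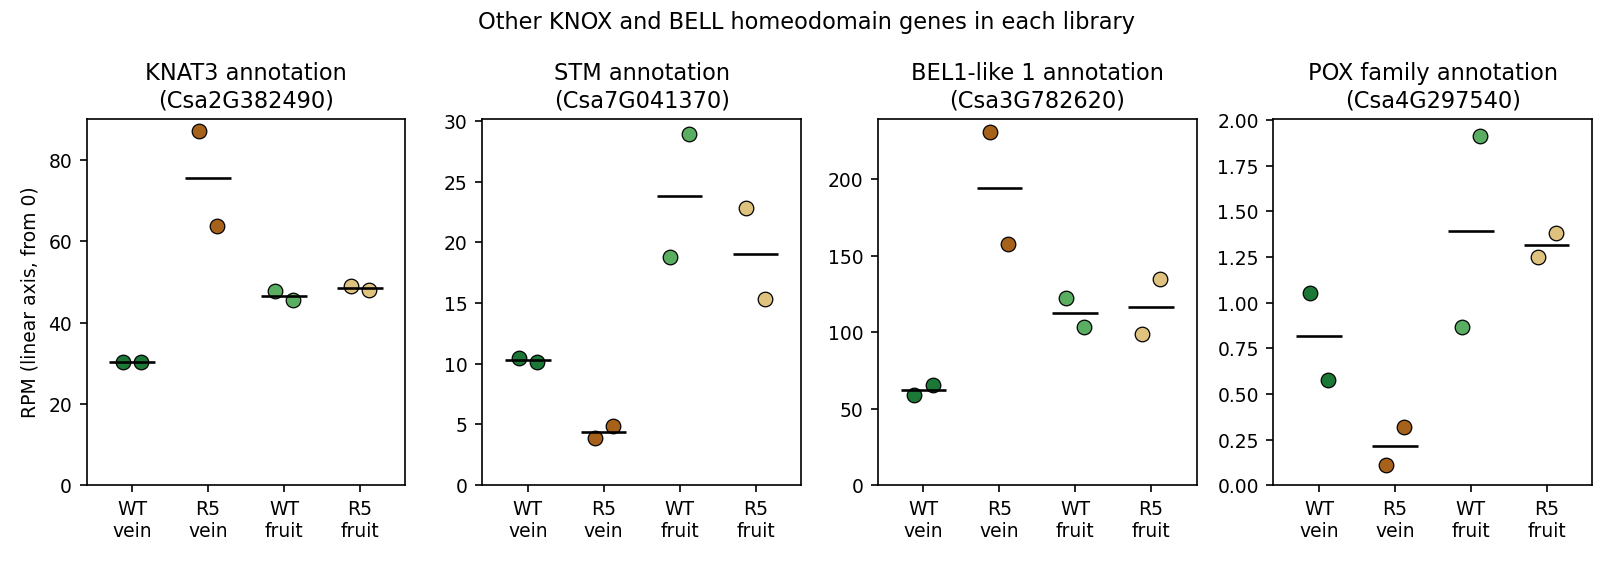
RPM of the other KNOX and BELL genes in each library (linear axes from 0, 1 for each gene), 2 points a group with the group mean as a line. R5 vein holds the highest values of the *KNAT3* annotation (87.2 and 63.9 RPM) and of BEL1-like homeodomain 1 (231 and 157 RPM) and the lowest of *STM* (3.91 and 4.85 RPM).

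The gene lists that follow were drawn from the same tables, so their counts in vein are no independent evidence of a direction. The shares called over all genes in vein were 14.0% higher and 5.14% lower by limma, 10.2% and 8.35% with TMM scaling, 11.1% and 8.21% by edgeR, and 11.7% and 9.88% by DESeq2.

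Gibberellin genes are described because KNOX proteins act on gibberellin in other plants. Of 6 genes for gibberellin synthesis or breakdown, 3 were called higher and 1 lower in R5 vein. The number called lower was 2 with TMM scaling and without replicate 1 of R5 vein, and 3 by edgeR and DESeq2, with 3 called higher each time. Leaving out replicate 1 of WT vein left 2 called higher. In fruit limma called 0, with 2 at an unadjusted p under 0.05, edgeR called 0 and DESeq2 called 1 higher. The 3 that rose in vein are the annotated gibberellin 2-oxidases, which inactivate gibberellin. Csa4G075200 went from 1.71 and 2.84 RPM in WT vein to 22.1 and 15.5 RPM in R5 vein (2.81, SE 0.27, adjusted p = 0.000807), and Csa1G064730 from 2.27 and 3.62 RPM to 18.7 and 17.8 RPM (2.47, SE 0.35, adjusted p = 0.00291). Csa1G439830 went from 0.276 and 0.820 RPM to 2.28 and 3.95 RPM (1.80, SE 0.36, adjusted p = 0.00995), and its call was lost without WT vein replicate 1 (adjusted p = 0.0703). The gene that fell, Csa3G903540, is annotated as ent-kaurenoic acid hydroxylase 2, an enzyme of gibberellin synthesis, at 789 and 523 RPM in WT vein and 167 and 159 RPM in R5 vein (-1.97, SE 0.27, adjusted p = 0.00277). It was at most 18.4 RPM in any fruit library. GA requiring 3 (Csa4G638410), also a synthesis enzyme, differed by -0.85 in vein (SE 0.27, adjusted p = 0.0460), under 2-fold.

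Cytokinin genes, named because class I KNOX proteins raise cytokinin in *Arabidopsis*, were split. Of 6 tested, 3 were called higher and 1 lower in R5 vein by limma, and 3 higher and 3 lower with TMM scaling, by edgeR and by DESeq2. Fewer were called by limma without any one vein library, fits that leave 1 library in a group. Response regulator 12 (Csa1G267770) was at 8.90 and 9.40 RPM in WT vein, 29.3 and 17.5 RPM in R5 vein and 51.3 to 62.0 RPM in fruit, a vein difference of 1.26 (SE 0.24, adjusted p = 0.00787). Without R5 vein replicate 1 it was 0.90, under 2-fold, and without WT vein replicate 1 the adjusted p was 0.0593. Response regulator 17 (Csa5G223020) was at most 1.32 RPM in any vein library and differed by 1.12 (SE 0.28, adjusted p = 0.0204). Leaving out WT vein replicate 1 or 2 ended the call (adjusted p of 0.111 and 0.0911), as did leaving out R5 vein replicate 2 (0.83, under 2-fold).

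OVATE family proteins bind KNOX and BELL proteins in *Arabidopsis*. Of 5 in the tables, 3 were called lower in R5 vein and the other 2 were not called. TMM scaling called 4 lower, and edgeR and DESeq2 each called 5. By limma fewer were called lower without replicate 1 of R5 vein or without either WT vein library. In fruit 0 were called by limma, edgeR or DESeq2, and 0 had an unadjusted p under 0.05. Ovate family protein 6 (Csa3G778370) was at 8.96 and 6.75 RPM in WT vein and 5.37 and 3.79 RPM in R5 vein, which was under 2-fold (-0.72, SE 0.22, adjusted p = 0.0416), and at 16.9 to 20.5 RPM in fruit. Ovate family protein 8 (Csa2G004680) fell short of the call as well, at -0.94 (SE 0.25, adjusted p = 0.0271).

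Some LOB domain genes mark organ boundaries, and Asymmetric leaves 2, which keeps class I KNOX genes off in *Arabidopsis* leaves, is one of the family. Of 7 in the tables, 3 were called higher and 1 lower in R5 vein. The numbers were 2 and 2 with TMM scaling and without replicate 1 of R5 vein, 3 and 2 by edgeR, and 3 and 3 by DESeq2. Fewer were called by limma without either WT vein library. The gene called lower, Asymmetric leaves 2-like 1 (Csa2G295940), was at 4.04 and 4.87 RPM in WT vein and 1.14 and 1.58 RPM in R5 vein (-1.42, SE 0.25, adjusted p = 0.00609). Its adjusted p was 0.0517 without WT vein replicate 2. LOB domain-containing protein 41 (Csa3G278920) was at 2.32 and 2.41 RPM in WT vein and at 41.3 and 12.1 RPM in R5 vein (adjusted p = 0.00565), with fruit at 30.5 to 45.4 RPM. Its R5 vein libraries were far apart, and both lay above WT vein. LOB domain-containing protein 25 (Csa5G523080) was at 1.11 and 1.45 RPM in WT vein and 0.705 and 0.105 RPM in R5 vein and was not called (-1.05, SE 0.35, adjusted p = 0.0544).

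Lignin genes, on which *BP* acts in *Arabidopsis*, were 15 in the tables. In R5 vein 7 were called higher, 2 lower and 6 not called, and the fitted difference was above 0 for 8 of the 15. TMM scaling called 7 higher and 6 lower, edgeR 7 and 7, and DESeq2 8 and 7. By limma more were called lower without replicate 1 of R5 vein, and fewer higher without either WT vein library. The 2 genes named next had the largest calls in fruit or between tissues. Neither is among the 7 called higher in R5 vein. Laccase 3 (Csa1G533470), of a family of oxidases that polymerize lignin, was at 1.71 and 2.07 RPM in WT vein and 0.217 and 0.316 RPM in R5 vein (-1.64, SE 0.19, adjusted p = 0.00160) and at 18.1 to 21.1 RPM in fruit. Laccase 17 (Csa3G734120) was mainly in vein, at 10.3 and 8.53 RPM in WT and 5.59 and 1.74 RPM in R5, and was not called there (-1.42, SE 0.47, adjusted p = 0.0527). Its fruit level was at most 0.598 RPM.

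The 3 genes differed from each other in pattern across the 8 libraries. Likeness was measured as the root mean square difference of log2(RPM + 0.5) after each gene was centred on its own mean. A smaller value is a smaller difference. The values were not scaled, so the size of a gene's changes counts as well as their direction. It is a description over libraries that share tissue, genotype and depth. The value was 1.79 between *BP* and *KNAT6*, 2.02 between *KNAT2* and *KNAT6*, and 3.14 between *BP* and *KNAT2*. The smallest value does not mean a shared direction. In WT vein against fruit *BP* was at 1.12, *KNAT6* at -3.15 and *KNAT2* at -5.87. Seen from *KNAT2*, *KNAT6* ranked 704 among all other tested genes, whereas seen from *KNAT6*, *KNAT2* ranked 16504.

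The gene closest to *KNAT6* was Csa6G046240, annotated to the duplicated homeodomain-like superfamily, at a distance of 0.17. It stood at 0.663 and 0.578 RPM in WT vein, 4.50 and 2.16 RPM in R5 vein and 7.92 to 14.4 RPM in fruit. Next were an SBP domain transcription factor (Csa6G094760, 0.22) and an RNA-dependent RNA polymerase (Csa1G574860, 0.23). The median distance from *KNAT6* over all genes was 1.20. The genes closest to *KNAT2* were Csa2G381830 (0.29), Csa3G865440 (0.34) and Csa7G018730 (0.36), all without a name in those tables, beside a median of 2.88. All 3 were at most 0.723 RPM in vein and at least 25.1 RPM in fruit. Those closest to *BP* were a cation/H+ exchanger (Csa4G050270, 0.26), an OB-fold-like protein (Csa1G002690, 0.31) and an EXS family protein (Csa5G608190, 0.31), beside a median of 0.90.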

How the data were processed

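RNA from 4 midvein and 4 fruit libraries was sequenced as directional libraries. The authors mapped the reads with TopHat, counted them with HTSeq and deposited RPM values (versions not given in the sources used here). The deposited RPM values were whole multiples of 1 read in 100% of cases (tolerance 0.05 of a read), which gave the recovered reads. log2(RPM + 0.5) was fitted with limma 3.58.1 in R 4.3.3 (trended empirical Bayes, two-sided), with 4 group means and 1 common spread over 8 libraries. Genes reaching 1 RPM in 2 or more libraries entered, 17778 in all. An exact permutation of 2 libraries against 2 cannot go below p = 0.333.

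Alternatives were a pseudocount of 0.1 or 1, no or a stricter filter, TMM factors, edgeR 4.0.16 and DESeq2 1.42.0 on recovered reads, a separate fit of the 2 groups, the replicate number as a block (also with the vein numbers crossed, added after seeing the data), and leaving out each library. On simulated reads with 200 genes changed 4-fold in R5 vein, 77 of 259 DESeq2 calls in vein were false. For limma 13 of 164 were false and for edgeR 11 of 162. Members and lists were chosen with earlier results of these data known. Named were the members, the other KNOX and BELL genes, per list the 2 largest calls in fruit or between tissues and genes tied to KNOX action, and the 3 genes of closest pattern. As 0 identifiers matched the reference annotation, no promoter or protein was shown. Intervals and the limit of 3 reads cover counting error only.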

Additional observations from a re-analysis of the deposited data

Results flagged for a closer look

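The R5 effect on *KNAT6* (Csa5G600390) was larger in vein than in fruit by 1.52 on the log2 scale, and limma's test of this difference passed its threshold (SE 0.33, adjusted p = 0.0370, 2 libraries per group). It did not pass when any one library of WT vein, WT fruit or R5 fruit was left out (adjusted p of 0.105 to 0.153) or with the replicate number as a block (0.0991). Both R5 vein libraries lay above both WT vein libraries, and both R5 fruit libraries lay slightly above both WT fruit libraries. The summed level of the 20 green leaf genes also differed between WT vein (32009 and 29264 RPM) and R5 vein (2709 and 16474 RPM), and its part in this result was not tested.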

How the results depend on the processing

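There were 15 results on *BP*, *KNAT2* and *KNAT6*. Of 267 values under the alternatives 242 kept their direction and side of the threshold, 12 lost a call, 11 gained one and 2 changed sign. Many alternatives cannot move an estimate, so this count overstates the agreement. Leaving out a fruit library, for example, keeps the vein difference of *BP* at -1.60 and can change only its p-value. With the replicate number as a block the vein result of *BP* was still -1.60 (adjusted p = 0.0544) and the vein-minus-fruit result of *KNAT6* 1.52 (adjusted p = 0.0991), neither called; with the vein numbers crossed these were -1.60 (adjusted p = 0.0598) and 1.52 (adjusted p = 0.0587). The numbers need not pair the samples: deviations of same-numbered libraries correlated across genes at -0.11 in vein and 0.14 in fruit. Leaving out 1 library gave *BP* -1.89 to -1.32 in vein, -0.22 to 0.70 in fruit (reversed to -0.22 and -0.13), and 0.66 to 1.58 for WT vein against fruit, and gave *KNAT6* 1.20 to 1.85 for vein minus fruit. Calls were gained for *BP* in WT vein against fruit with TMM (1.45), edgeR (1.91), DESeq2 (1.99), a separate fit of the 2 groups (1.12, adjusted p = 0.0240) and leaving out R5 vein replicate 1 (1.12, adjusted p = 0.0363) or 2 (1.12, adjusted p = 0.0358) or WT fruit replicate 2 (1.58), for *BP* vein minus fruit with DESeq2 (-3.11, adjusted p = 0.0373), and for *KNAT2* in vein with a pseudocount of 0.1 (-1.43), edgeR (-2.23) and DESeq2 (-2.32). For 31 results on other named genes, 482 of 556 values kept their call, 54 lost it, 20 gained it and 0 changed direction. Counts of called genes were least stable in fruit (84, against 362 with DESeq2, 218 with a separate fit, 2 with the block and 0 to 357 without 1 library) and for vein minus fruit (2032, against 3393 with DESeq2, 0 with the block, 831 with it crossed and 0 to 8188 without 1 library). In vein they were 3407, against 2163 with a separate fit and 2109 to 5038 without 1 library. With TMM, calls in vein against fruit in WT were 2016 higher and 2017 lower, against 1325 and 4039 on RPM, and in vein 1817 higher and 1485 lower, against 2494 and 913. The cause of these changes was not tested. Depth limits *KNAT2* in R5 vein (1 and 3 reads) and *BP* in all groups (6 to 51 reads per library).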
